A study of Mus musculus with 16 samples.

Results

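The 10 genes described here encode the machinery that makes and loads peptides for MHC class I. They are Psmb8, Psmb9, Psmb10, Tap1, Tap2, Tapbp, B2m, Nlrc5, Erap1 and H2-K1, chosen by name, with earlier results of these data known. All 10 were found among the 24421 genes of the tables keyed by symbol and among the 51912 entries of the table keyed by Ensembl identifier. Read counts came from RNA-seq of 16 libraries of C57BL/6 mouse organoids (cultures that grow as small tissue-like bodies), and the titles put them in 6 groups. Lung-LMP1 (n = 3) and LMP1 (n = 2) are tumour organoids called TMPL, which carry Trp53-/-, Myc, sgCdkn2a and LMP1, which Epstein-Barr virus encodes and which signals from the membrane. Lung-Ctr (n = 2) and Ctr (n = 3) are tumour organoids called TMP, which carry the same Trp53-/-, Myc and sgCdkn2a without LMP1. Normal_nasopha (n = 3) and Normal_lung (n = 3) are untreated organoids of nasopharynx and of lung. A table of Ctr against normal nasopharynx holds 3 more columns, headed as normal lung and called the normal comparator here.

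The labels limit what these groups stand for. Tumours grew in recipient mice after transplantation into the nasopharynx and were then cultured, and no driver of the LMP1 or Myc transgene is given. By the design text each genotype gave primary and metastasized tumours, yet TMP libraries are all described as primary and TMPL libraries all as metastasis. Genotype therefore cannot be told apart from the described site, and the Lung prefix is not read here as a site of growth. Neither ages nor numbers of animals are given in the sources used here, nor whether replicates were separate animals or cultures. The p-values hence reflect only how far these libraries spread, which may be technical. The LMP1 transcript was not analysed here.

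Cells display short peptides from their own proteins on MHC class I, which CD8 T cells read. The proteasome cuts the proteins, and interferon leads cells to build an immunoproteasome, in which Psmb8, Psmb9 and Psmb10 take the places of the constitutive catalytic subunits Psmb5, Psmb6 and Psmb7. Tap1 and Tap2 form the transporter that carries peptides into the endoplasmic reticulum, Tapbp (tapasin) holds the empty class I molecule beside it, and Erap1 trims peptides there. H2-K1 is a class I heavy chain, B2m its light chain, and Nlrc5 a transactivator of class I genes.

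Of the 10 genes, 6 lie on chromosome 17 within the mouse MHC region, namely Psmb8, Psmb9, Tap1, Tap2, Tapbp and H2-K1. Psmb10 and Nlrc5 lie on chromosome 8, B2m on chromosome 2 and Erap1 on chromosome 13. Tap1 (chr17:34187553-34197225, plus strand) and Psmb9 (chr17:34181987-34187764, minus strand) are neighbours whose annotated gene models overlap by 212 bases on opposite strands. Whether the authors' counting used strand is not stated in the labels, so reads in that overlap cannot be assigned. H2-K1 has near-identical relatives among the class I heavy chains, and its counts are uncertain to that extent.

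RefSeq promoter windows, from 250 bases before to 50 bases after a start site on GRCm38.p6 (mm10), were found for 8 of the 10 genes, the others being Nlrc5 and Tap2. The windows below are shown because these genes have different motifs and, in the tumour libraries, different levels. Each was searched on both strands for an interferon-stimulated response element (ISRE, GAAA then any 2 bases then GAAA), an interferon gamma activated sequence (GAS, TTCNNNGAA), a CCAAT box (CCAAT) and an NF-kappaB motif (kB, GGGNNTTCC). Capitals mark the matches, and sequences read 5′ to 3′ on the gene's strand.

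B2m promoter, chr2:122147437-122147736, plus strand: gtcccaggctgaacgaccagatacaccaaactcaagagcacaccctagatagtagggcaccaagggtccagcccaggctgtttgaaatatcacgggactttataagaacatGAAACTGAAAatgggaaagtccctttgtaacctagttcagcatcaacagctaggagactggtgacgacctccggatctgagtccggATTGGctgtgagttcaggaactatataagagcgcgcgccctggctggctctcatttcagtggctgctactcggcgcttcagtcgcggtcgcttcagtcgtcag
Erap1 promoter, chr13:74639603-74639902, plus strand: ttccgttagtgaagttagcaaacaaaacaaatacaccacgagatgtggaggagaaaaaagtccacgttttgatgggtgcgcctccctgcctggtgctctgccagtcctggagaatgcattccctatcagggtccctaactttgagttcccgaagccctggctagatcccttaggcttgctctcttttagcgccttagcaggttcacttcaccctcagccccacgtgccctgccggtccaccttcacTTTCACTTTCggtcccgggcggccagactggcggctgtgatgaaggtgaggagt
H2-K1 promoter, chr17:34000298-34000597, minus strand: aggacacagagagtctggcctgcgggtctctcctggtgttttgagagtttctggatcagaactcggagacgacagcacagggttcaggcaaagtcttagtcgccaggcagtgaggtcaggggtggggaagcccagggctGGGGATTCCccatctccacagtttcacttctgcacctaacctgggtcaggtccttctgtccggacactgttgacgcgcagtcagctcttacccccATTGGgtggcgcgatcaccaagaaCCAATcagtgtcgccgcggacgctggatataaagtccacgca
Psmb8 promoter, chr17:34197945-34198244, plus strand: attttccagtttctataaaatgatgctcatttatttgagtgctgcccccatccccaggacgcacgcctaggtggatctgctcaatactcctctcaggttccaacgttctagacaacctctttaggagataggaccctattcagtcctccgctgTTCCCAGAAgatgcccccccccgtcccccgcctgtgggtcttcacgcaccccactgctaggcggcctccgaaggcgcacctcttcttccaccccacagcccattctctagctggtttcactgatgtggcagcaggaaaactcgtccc
Tap1 promoter, chr17:34187306-34187605, plus strand: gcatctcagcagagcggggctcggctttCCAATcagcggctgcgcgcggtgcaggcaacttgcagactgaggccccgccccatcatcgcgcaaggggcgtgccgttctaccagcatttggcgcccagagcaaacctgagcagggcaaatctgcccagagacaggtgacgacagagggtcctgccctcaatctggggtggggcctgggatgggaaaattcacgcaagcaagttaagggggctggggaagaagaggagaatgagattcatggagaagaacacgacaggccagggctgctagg
Psmb10 promoter, chr8:105938343-105938642, minus strand: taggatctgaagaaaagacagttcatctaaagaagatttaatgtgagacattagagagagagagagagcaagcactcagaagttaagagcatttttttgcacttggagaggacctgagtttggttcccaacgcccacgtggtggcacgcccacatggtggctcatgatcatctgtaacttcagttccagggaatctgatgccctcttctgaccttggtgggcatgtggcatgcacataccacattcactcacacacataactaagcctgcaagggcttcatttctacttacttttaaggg

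An ISRE stood 139 bases before the start in B2m and 4 bases before it in Erap1, and 3.44% of all 32851 RefSeq windows hold one. Psmb8 had a GAS 97 bases before its start (8.3% of all windows), and H2-K1 a kB motif 111 bases before its start (5.82% of all windows). CCAAT boxes were found in B2m, H2-K1, Psmb9, Tap1 and Tapbp, against 37.4% of all windows. The Tap1 and Psmb9 windows share 275 bases, so their single CCAAT box is the same one read from either side. The Psmb10 window held no exact match to any of these motifs. Only exact matches were counted, so a window without a match may still hold a variant of an element.

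Total counts ran from 12535166 to 21737184 per library, so 3 counts correspond to 0.138 to 0.2393 CPM (counts per 1000000 counts of the library), the unit of level used below. Of 16 leukocyte markers, 2 or 3 averaged at least 1 CPM in each tumour group (Cd68 and Cd14, with Lyz2 in both TMPL groups), and Ptprc stayed at or below 0.216 CPM. All 8 epithelial markers averaged at least 1 CPM in each group. Their summed level was 5489 to 6856 CPM in Lung-LMP1, 915 to 1386 CPM in LMP1, 4942 to 6210 CPM in Lung-Ctr and 2928 to 4824 CPM in Ctr. Summed fibroblast markers were 40.8 to 83.4 CPM in LMP1 and 0.278 to 110 CPM in Ctr, but at most 1.52 CPM in Lung-LMP1 and 0.465 CPM in Lung-Ctr. Myc was at 457 to 2005 CPM in tumours, with no tumour library below the comparator's highest. Trp53 was at 58.1 to 109 CPM and Cdkn2a at 122 to 381 CPM in tumours, and counts over whole genes do not show which exons these reads came from, so they check neither label. In bulk RNA, fewer cells of a type and less RNA per cell cannot be told apart.

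Among LMP1 libraries the class I machinery was lower than among Ctr libraries for most members, but only Psmb9 passed the test. Psmb9 was at 0.332 and 0.880 CPM in LMP1, against 8.15, 7.06 and 3.06 CPM in Ctr. Both LMP1 libraries lay below every Ctr library. The fitted log2 fold change of Psmb9 was -3.34 ± 0.75 (SE), or 10.1-fold lower in LMP1, with an adjusted p of 0.0215 (edgeR quasi-likelihood F-test, Benjamini-Hochberg over 13460 genes). These counts are small, 19 reads over the LMP1 libraries against 253 over the Ctr libraries.

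The other immunoproteasome subunits moved apart from each other. Psmb8 was at 1.55 and 1.29 CPM in LMP1, against 10.9, 14.0 and 2.78 CPM in Ctr, a log2 fold change of -2.71 ± 1.0 that missed the threshold (edgeR adjusted p = 0.0956). Psmb10 was at 31.7 and 26.1 CPM in LMP1, against 15.3, 19.2 and 19.1 CPM in Ctr. It is the member with LMP1 libraries above all Ctr libraries, at a log2 fold change of 0.67 ± 0.27 (edgeR adjusted p = 0.122).

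Tap1 was at 5.70 and 7.10 CPM in LMP1, against 51.8, 36.3 and 14.8 CPM in Ctr, and the groups did not overlap (log2 fold change -2.44 ± 0.75, edgeR adjusted p = 0.0576). Its transporter partner Tap2 was at 5.76 and 6.36 CPM in LMP1, against 15.6, 12.7 and 6.19 CPM in Ctr, where the lowest Ctr library fell between the LMP1 libraries. The ratio of Tap1 to Tap2 counts was 0.990 and 1.12 in LMP1, against 3.33, 2.86 and 2.39 in Ctr. Both LMP1 libraries thus held close to equal reads of these genes, while every Ctr library held more Tap1.

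Nlrc5, the class I transactivator, was close to the limit of detection in LMP1. It had 0 and 2 reads there, against 53, 61 and 25 reads in Ctr. By pooled counts the LMP1 level was 0.0183 times the Ctr level, with a 95% exact interval of 0.0022 to 0.0675 that covers counting error only, and the fit gave an adjusted p of 0.103 (edgeR). In the LMP1 libraries 3 counts correspond to no more than 0.203 CPM.

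B2m was at 107 and 119 CPM in LMP1, against 518, 457 and 162 CPM in Ctr (log2 fold change -1.76 ± 0.80, edgeR adjusted p = 0.159). Its heavy chain partner H2-K1 was at 195 and 287 CPM in LMP1, against 591, 543 and 319 CPM in Ctr (-1.02 ± 0.51, edgeR adjusted p = 0.192). For both genes the LMP1 libraries lay below all Ctr libraries, and neither difference passed the test. Erap1 was at 61.3 and 65.6 CPM in LMP1, against 85.3, 107 and 81.5 CPM in Ctr, a small difference without overlap (-0.55 ± 0.19, edgeR adjusted p = 0.0819). Tapbp overlapped between the groups, at 132 and 174 CPM in LMP1 against 132, 151 and 80.1 CPM in Ctr.

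Over the members, 1 of 10 was called lower in LMP1 and none higher, against 16.4% of the 13460 genes tested that were called in either direction (9.06% lower and 7.36% higher). The share of members called is thus not above the background. At an unadjusted p under 0.05 there were 6 members, against 33.6% of all genes, and 8 members did not overlap between groups, against 56.3% of all genes. The log2 fold change was negative for 8 members, with a median of -1.39 over the 10 members and -0.0136 over all genes tested. The call of Psmb9 was lost without either LMP1 library (log2 fold change -2.79, edgeR adjusted p = 0.18 without replicate 1, and -4.18, 0.0983 without replicate 2). Tap1 passed without Ctr replicate 3 (edgeR adjusted p = 0.047), and Tap1 (0.0203) and Nlrc5 (0.0333) passed without Lung-LMP1 replicate 2, which enters the shared spread. DESeq2 called 6 members, all lower, namely Psmb8, Psmb9, Tap1, B2m, Nlrc5 and Erap1, and 26.5% of all genes. The authors' deposited table calls 7 members lower and 1, Psmb10, higher at an adjusted p under 0.05, against 27.7% of the genes with an adjusted p there.

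**Figure D1:**
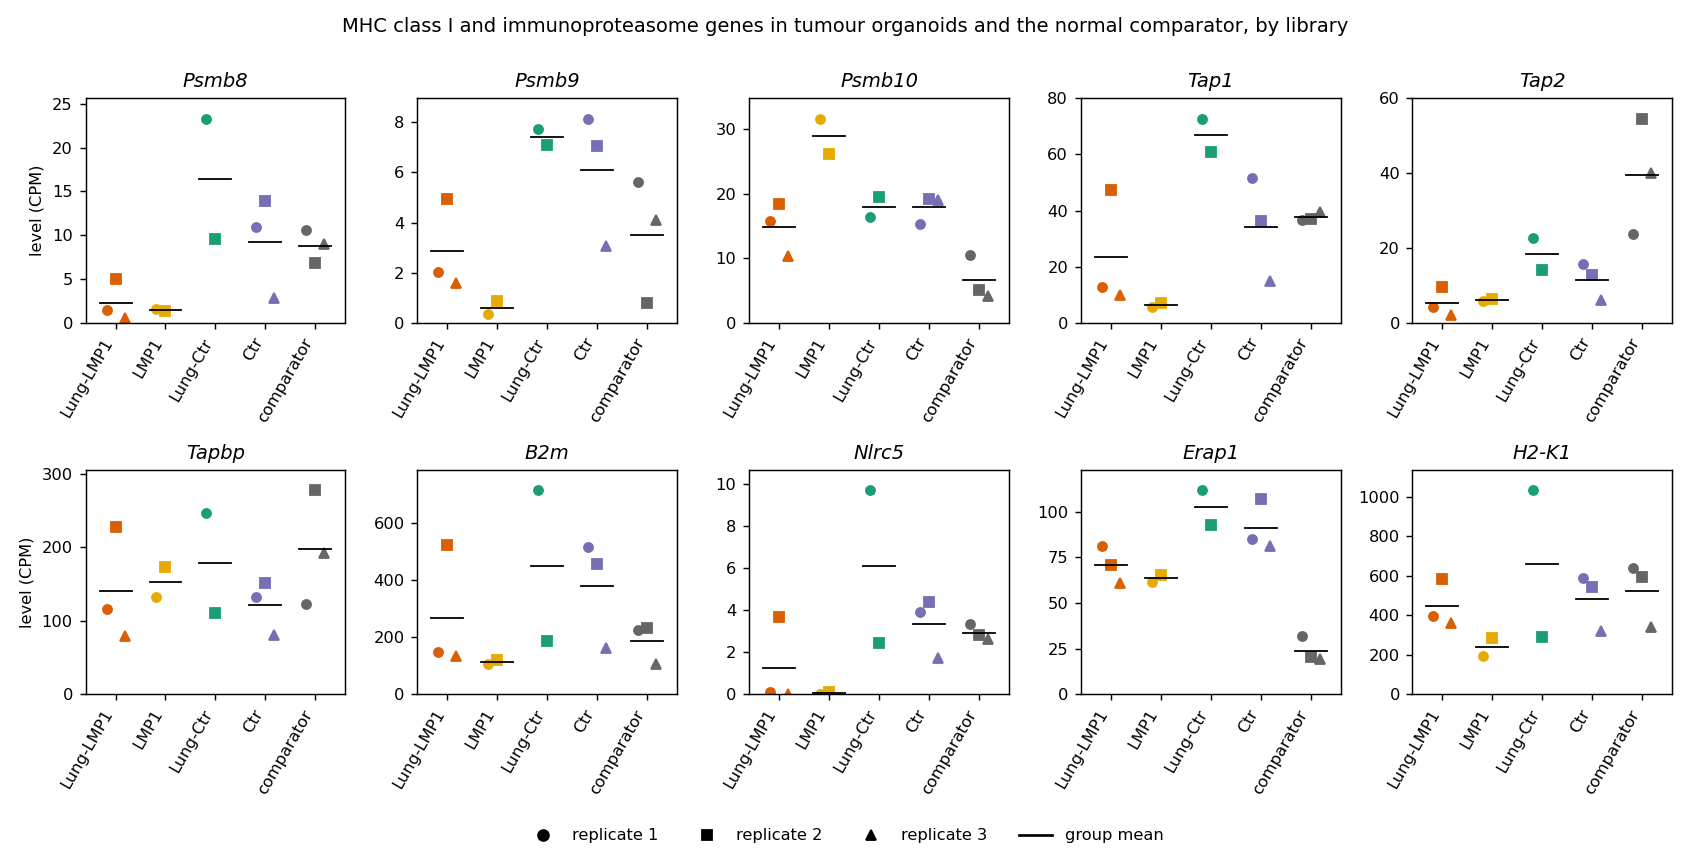
Level of each gene (CPM, linear axis from 0) by library in the 4 tumour groups and the normal comparator, with a marker shape per replicate and a line at the group mean. For Psmb8, Psmb9, Tap1, B2m and Nlrc5 both LMP1 libraries lie below every Ctr library, Psmb10 is reversed, and Lung-LMP1 replicate 2 stands above the other Lung-LMP1 libraries for most genes.

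Lung-LMP1 libraries also held lower average levels of class I machinery than Lung-Ctr libraries, and no member passed the test. Psmb8 was at 1.42, 4.96 and 0.558 CPM in Lung-LMP1, against 23.3 and 9.57 CPM in Lung-Ctr (log2 fold change -2.76 ± 0.89, edgeR adjusted p = 0.184). Tap2 was at 4.13, 9.43 and 2.15 CPM in Lung-LMP1, against 22.8 and 14.0 CPM in Lung-Ctr (-1.75 ± 0.59, edgeR adjusted p = 0.195). For both genes all Lung-LMP1 libraries lay below both Lung-Ctr libraries. Tap1 was at 12.8, 47.4 and 9.97 CPM in Lung-LMP1, against 72.8 and 60.8 CPM in Lung-Ctr, again without overlap.

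Psmb9 was at 2.03, 4.96 and 1.6 CPM in Lung-LMP1, against 7.73 and 7.11 CPM in Lung-Ctr (-1.31 ± 0.62, edgeR adjusted p = 0.322). Erap1 was at 81.1, 71.1 and 60.9 CPM in Lung-LMP1, against 112 and 92.9 CPM in Lung-Ctr (-0.47 ± 0.19, edgeR adjusted p = 0.249). These complete the 5 members without overlap, against 33.4% of all genes tested. The surface chains overlapped. B2m was at 149, 523 and 133 CPM in Lung-LMP1, against 716 and 186 CPM in Lung-Ctr, and H2-K1 at 397, 582 and 362 CPM, against 1033 and 290 CPM in Lung-Ctr. Nlrc5 had 2, 60 and 0 reads in Lung-LMP1, against 139 and 37 reads in Lung-Ctr. Tapbp was at 116, 228 and 79.1 CPM in Lung-LMP1, against 246 and 111 CPM in Lung-Ctr, and Psmb10 at 15.7, 18.5 and 10.4 CPM, against 16.4 and 19.5 CPM in Lung-Ctr.

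No member was called by edgeR, as was 0% of all genes. The smallest adjusted p over all genes was 0.109, and 2295 genes had an unadjusted p below 0.05. Of the members, 3 had an unadjusted p under 0.05 (Psmb8, Tap2 and Erap1), against 17.1% of all genes. All 10 log2 fold changes were negative, with a median of -1.01, against -0.0401 over all genes. DESeq2 called 869 genes (6.46%), among them 1 member, Psmb8, and the authors' deposited table calls 3.42% of its genes and none of the members. Without Lung-Ctr replicate 1 the log2 fold changes of Tapbp (0.39), B2m (0.57) and H2-K1 (0.66) turned positive, and Tapbp was also at 0.0013 without Lung-LMP1 replicate 3. Without Lung-LMP1 replicate 2 the differences were wider, at -3.97 for Psmb8, -1.97 for Psmb9, -2.49 for Tap1, -2.48 for Tap2, -1.62 for B2m and -6.19 for Nlrc5, and still no member was called (smallest edgeR adjusted p among these 0.13). Whether the difference between TMPL and TMP libraries changed with the Lung prefix was tested as an interaction. No member was called there (edgeR), against 0.892% of all genes (0.81% higher and 0.0817% lower). Psmb10 had an unadjusted p of 0.0486 (adjusted p = 0.316), the one member under 0.05, and DESeq2 called none of the members and 6.85% of all genes.

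Between the TMPL groups, Lung-LMP1 libraries were higher than LMP1 libraries for several members, none of which passed the test. All Lung-LMP1 libraries exceeded both LMP1 libraries for Psmb9, at 2.03, 4.96 and 1.6 CPM in Lung-LMP1 against 0.332 and 0.880 CPM in LMP1 (log2 fold change 2.37 ± 0.72, edgeR adjusted p = 0.0715). They also did so for Tap1, at 12.8, 47.4 and 9.97 CPM in Lung-LMP1 against 5.70 and 7.10 CPM in LMP1 (2.0 ± 0.74, edgeR adjusted p = 0.121). B2m and H2-K1 did not overlap either and were higher in Lung-LMP1. Psmb10 was lower in all Lung-LMP1 libraries, at 15.7, 18.5 and 10.4 CPM against 31.7 and 26.1 CPM in LMP1 (-0.82 ± 0.27, edgeR adjusted p = 0.0899). Tap2 and Psmb8 overlapped between these groups. The ratio of Tap1 to Tap2 counts was 3.10, 5.03 and 4.63 in Lung-LMP1 against 0.990 and 1.12 in LMP1.

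Against 10.1% of all genes called (6.17% higher and 3.95% lower), 0 of the 10 members were called by edgeR between Lung-LMP1 and LMP1. An unadjusted p under 0.05 was found for 3 members, against 27.4% of all genes, and 5 members did not overlap, against 55.8% of all genes. DESeq2 called Psmb9 and Tap1 higher and Psmb10 lower, against 18.8% of all genes, and the authors' deposited table calls 3 members higher and 1 lower, against 26.2% of its genes. With every library in, the log2 fold change was 2.0 for Tap1, 1.38 for B2m, 4.30 ± 2.06 for Nlrc5 and 0.85 for Psmb8. Without Lung-LMP1 replicate 2 the log2 fold change of Tap1 was 0.97, that of B2m 0.46 and that of Nlrc5 0.29, and Psmb8 turned to -0.36. These comparisons share libraries with those above and are not independent of them.

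Within TMP, no member passed the test between Lung-Ctr and Ctr libraries. All 10 log2 fold changes were positive with every library in, with a median of 0.57 against 0.0018 over all genes. Without Lung-Ctr replicate 1, Tapbp (-0.047), B2m (-0.94), Nlrc5 (-0.36) and H2-K1 (-0.67) turned negative, and Psmb10 turned negative without Ctr replicate 1 (-0.053) or Lung-Ctr replicate 2 (-0.071). B2m also turned negative without Ctr replicate 3 (-0.041). Tap1 was the single member without overlap, at 72.8 and 60.8 CPM in Lung-Ctr against 51.8, 36.3 and 14.8 CPM in Ctr. No gene at all was called by edgeR (0%), 717 genes had an unadjusted p under 0.05 (5.33%), and none of the members was among them. DESeq2 called 40 genes (0.297%) and none of the members, and the authors' deposited table calls 0.222% of its genes and none of the members. Non-overlap was found for 14.5% of all genes.

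**Figure D2:**
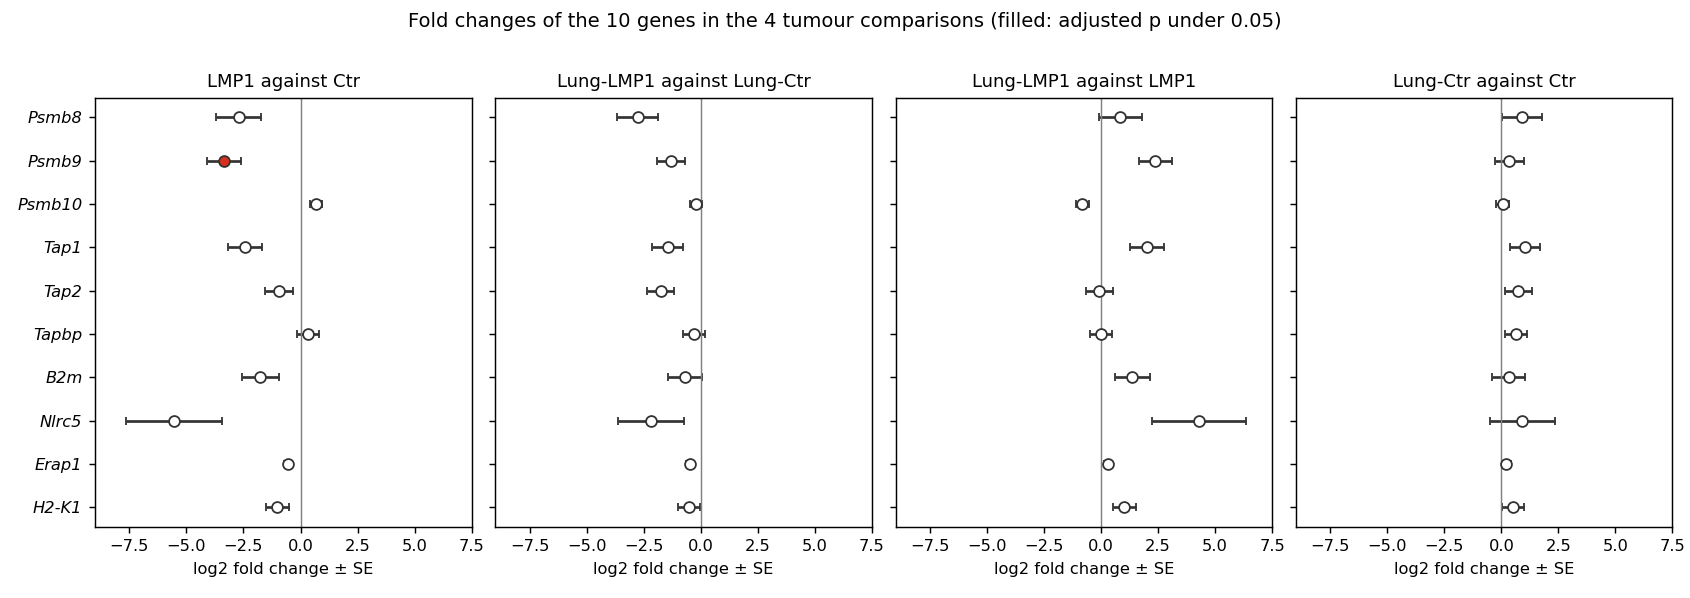
Log2 fold change (point) and its standard error (bar) of each gene in the 4 tumour comparisons from the edgeR fit of all 10 tumour libraries, with the first-named group over the second. The filled point is Psmb9 in LMP1 against Ctr, the one value with an adjusted p under 0.05, while, with every library in, all 10 genes are negative in Lung-LMP1 against Lung-Ctr and positive in Lung-Ctr against Ctr.

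Libraries of a group differed from each other across most members at once. In Lung-LMP1, replicate 2 was the highest library for 9 of 10 members, all but Erap1, and replicate 3 the lowest for all 10. In Lung-Ctr, replicate 1 was the higher library for 9 members, all but Psmb10, and in Ctr replicate 3 was the lowest for 9, again all but Psmb10. The median log2 range within a group was 1.71 over the members in Lung-LMP1, against 0.484 over 12324 genes with a mean of at least 1 CPM. It was 0.284 against 0.155 in LMP1, 0.913 against 0.39 in Lung-Ctr and 1.20 against 0.602 in Ctr. Summed leukocyte markers were 45.1, 286 and 72.7 CPM in Lung-LMP1 replicates 1 to 3, 126 and 29.9 CPM in Lung-Ctr, and 125, 142 and 49.3 CPM in Ctr, beside 87.5 and 128 CPM in LMP1. The library highest in most members was also highest in this sum in Lung-LMP1 and in Lung-Ctr, and Ctr replicate 3 was lowest in both. Only Cd68, Cd14 and, in the TMPL groups, Lyz2 averaged at least 1 CPM, and most of the 286 CPM was Cd14. Ptprc stayed at or below 0.216 CPM in tumours, so the sum is no measure of a leukocyte share. Of the 16 markers, Cd3e, Cd8a, Nkg7 and Adgre1 had no read in any Lung-LMP1 or LMP1 library, whereas the myeloid marker Lyz2 was at 0.271, 2.45 and 0.718 CPM and Cd68 at 10.5, 17.7 and 17.1 CPM in Lung-LMP1 replicates 1 to 3. Summed lung epithelial markers were at 0.271, 28.2 and 5.66 CPM in Lung-LMP1 and 11.6 and 0.664 CPM in Lung-Ctr. In Ctr they were at 6.24, 5.98 and 0.278 CPM. Of these 6 markers only Sftpd averaged at least 1 CPM in each tumour group, and Nkx2-1 was at 0 in every tumour library. In Lung-LMP1 this sum and the leukocyte sum were lowest in replicate 1, whereas replicate 3 was lowest for all 10 members. Ciliated and mucous markers summed to 3.32, 159 and 6.14 CPM in Lung-LMP1. The part of these markers in the result was not tested.

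Psmb8 had the widest range among members detected in every tumour library, 41.8-fold between Lung-Ctr replicate 1 and Lung-LMP1 replicate 3. Psmb9 spanned 24.5-fold, Tap1 12.8-fold, Tap2 10.6-fold, B2m 6.67-fold and H2-K1 5.31-fold. Tapbp (3.11-fold), Psmb10 (3.05-fold) and Erap1 (1.83-fold) varied least. As a description over the 10 tumour libraries, which share groups and so are not independent, each member's log2 CPM was correlated with the mean standardised level of the other 9. Pearson's r was 0.95 for Psmb8, 0.94 for Nlrc5, 0.914 for Tap2, 0.895 for B2m and 0.895 for Tap1. It was 0.81 for Psmb9, 0.788 for Erap1, 0.741 for H2-K1 and 0.578 for Tapbp, but -0.209 for Psmb10. The genes outside the list whose levels were most like the members' mean over these libraries were Irgm1 (r = 0.971), Mndal (0.968), Helz2 (0.962), Slfn5 (0.961) and Sp100 (0.958).

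**Figure D3:**
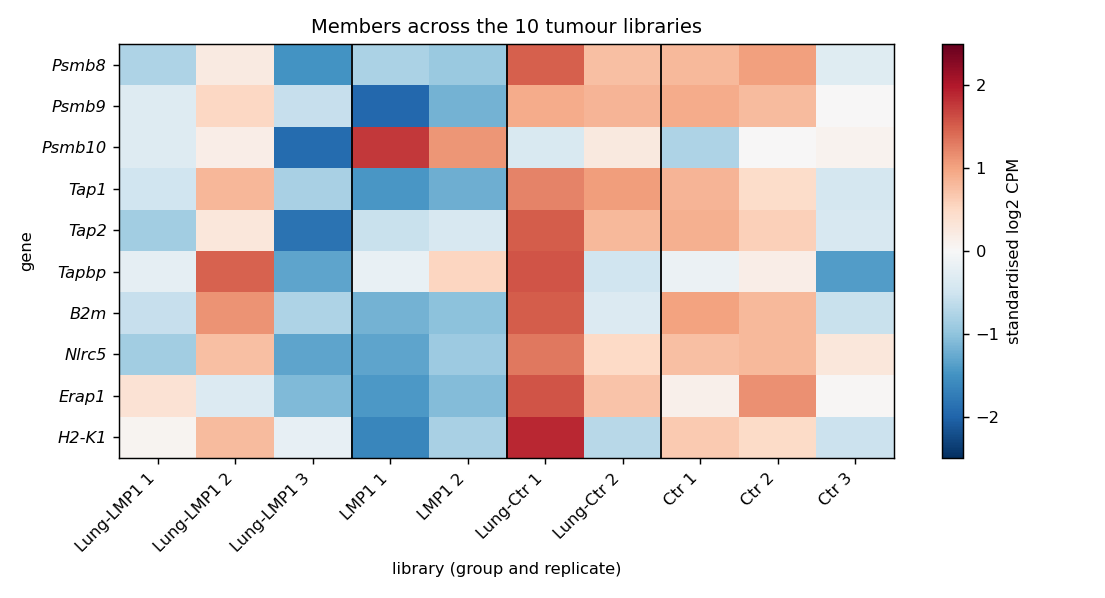
Standardised log2 CPM of each gene (rows; mean 0 and SD 1 over the tumour libraries) in the 10 tumour libraries (columns), with lines between groups. Lung-LMP1 replicate 2 is above the mean for all genes but Erap1, Lung-Ctr replicate 1 for all but Psmb10, and both LMP1 libraries are below it for all but Psmb10 and Tapbp.

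Set against the constitutive subunit of the same library, Psmb9 and Psmb8 were lower in both TMPL groups than in their TMP counterparts. The ratio of Psmb9 to Psmb6 counts was 0.00306 and 0.00749 in LMP1, against 0.106, 0.0994 and 0.0369 in Ctr. It was 0.0221, 0.0587 and 0.0190 in Lung-LMP1, against 0.102 and 0.104 in Lung-Ctr. Neither pair of groups overlapped, with differences in mean log2 ratio of -3.93 for LMP1 against Ctr and -1.82 for Lung-LMP1 against Lung-Ctr. Psmb6 itself was called higher in LMP1 than in Ctr (log2 fold change 0.53 ± 0.14, edgeR adjusted p = 0.0359), so the ratio moved through both genes. The Psmb8 to Psmb5 ratio was 0.0267 and 0.0222 in LMP1, against 0.274, 0.190 and 0.0360 in Ctr, and 0.0285, 0.122 and 0.0126 in Lung-LMP1, against 0.342 and 0.182 in Lung-Ctr. These groups did not overlap either, and the differences were -2.34 for LMP1 against Ctr and -2.82 for Lung-LMP1 against Lung-Ctr.

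For Psmb10 over Psmb7 the ratio was 0.219 and 0.163 in LMP1, against 0.160, 0.178 and 0.158 in Ctr, where the groups overlapped. Psmb10 carries most reads per kb of the inducible subunits, 16.9 ± 2.30 CPM per kb of exon in LMP1 and 10.5 ± 1.29 in Ctr (SD), against 0.419 ± 0.0553 and 2.73 ± 1.71 for Psmb8. A sum over the 3 inducible subunits therefore follows Psmb10. Summed counts per kb of the inducible over the constitutive subunits were 11.6% and 9.16% in LMP1, against 12.8%, 11.5% and 7.76% in Ctr, a difference of -0.017 in mean log2 ratio that is smaller than the pooled SD of 0.339. When each of the 3 pairs counts equally the same difference was -2.03. In Lung-LMP1 the summed ratio was 7.02%, 10.7% and 5.08%, against 12.6% and 12.8% in Lung-Ctr, without overlap and with a difference of -0.81 (pooled SD 0.439). Between Lung-LMP1 and LMP1 the difference was -0.51 (pooled SD 0.461), but 0.78 when each pair counts equally, so its sign depends on the weighting.

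**Figure D4:**
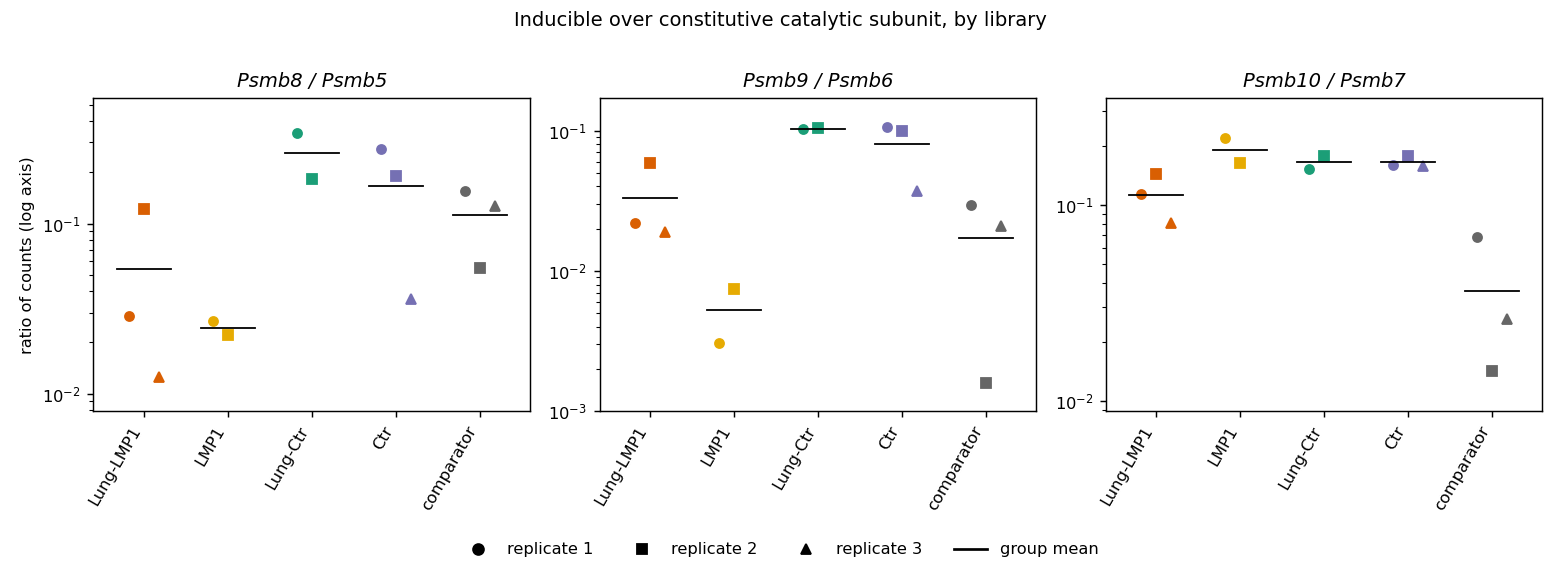
Ratio of counts of each inducible catalytic subunit to the constitutive subunit whose place it takes (log axis), by library, with marker shape per replicate and a line at the group mean. LMP1 libraries lie at 0.00306 and 0.00749 for Psmb9 over Psmb6, below all Ctr libraries, while Psmb10 over Psmb7 is lower in the comparator than in every tumour group.

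Levels per kb of exon ordered the members alike in all tumour groups at the top and bottom. B2m came first, at 312 ± 257 CPM per kb in Lung-LMP1, 132 ± 9.67 in LMP1, 525 ± 436 in Lung-Ctr and 441 ± 222 in Ctr (SD). H2-K1 had rank 2, at 152 ± 40.2 in Lung-LMP1, 82.0 ± 22.3 in LMP1, 225 ± 179 in Lung-Ctr and 165 ± 49.4 CPM per kb in Ctr, and Tapbp had rank 3, at 33.3 to 49.2 CPM per kb. Nlrc5 was lowest everywhere, at 0.00797 to 0.715 CPM per kb. In between, Psmb10 had rank 4 and Erap1 rank 5 in LMP1, while Erap1 had rank 4 in the other tumour groups. The ranges of mean ± SD of B2m and H2-K1 overlapped in Lung-LMP1 and Lung-Ctr but not in LMP1 or Ctr, and those of Erap1 and Psmb10 overlapped in Lung-LMP1 and Ctr.

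Other genes of the pathway were counted from lists chosen with earlier results of these data known. In LMP1 against Ctr, none of 11 tested class I heavy chains and class I-like genes was called (median log2 fold change -1.37, against -0.0136 over all genes tested), H2-D1 among them at -1.37 ± 0.55 (edgeR adjusted p = 0.118). None of 7 loading and quality control genes was called (median -0.25). Of 3 constitutive subunits Psmb6 was called higher, and of 7 proteasome activator and assembly genes the core subunits Psma1 (-0.46 ± 0.13, edgeR adjusted p = 0.0486) and Psma3 (-0.53 ± 0.13, edgeR adjusted p = 0.0288) were called lower. Of 21 regulators Nfyb, a subunit of the factor that binds CCAAT boxes (-0.67 ± 0.18, edgeR adjusted p = 0.0346), and Creb1, a cAMP-responsive factor (-0.62 ± 0.15, edgeR adjusted p = 0.026), were lower. Over all genes tested, 9.06% were called lower and 7.36% higher.

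Of 18 interferon-stimulated genes, 4 were called lower in LMP1 than in Ctr and none higher, against 9.06% and 7.36% of all genes. Of their log2 fold changes 17 were negative, with a median of -5.11. Ddx58, which encodes the RNA sensor RIG-I, was at 13.6 and 15.0 CPM in LMP1, against 154, 148 and 46.8 CPM in Ctr (-3.04 ± 0.83, edgeR adjusted p = 0.0387). Cxcl10, a chemokine that draws T cells, was at 1.33 and 1.56 CPM in LMP1, against 59.8, 47.8 and 22.1 CPM in Ctr (-4.92 ± 0.91, edgeR adjusted p = 0.0122). Ifit1 had 7 and 0 reads in LMP1, against 437, 1102 and 28 reads in Ctr. Usp18, which restrains interferon signalling, had 1 and 5 reads in LMP1, against 982, 893 and 95 reads in Ctr. For all 4 genes the LMP1 libraries lay below every Ctr library, while 56.3% of all genes did not overlap in either direction. Neither the interferon-stimulated genes nor any other list had a called gene in Lung-LMP1 against Lung-Ctr, where the interferon-stimulated genes had 18 negative values of 18 and a median of -1.85. In Lung-Ctr against Ctr no gene of these lists was called either, and 17 of the 18 were positive with a median of 0.75.

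In Lung-LMP1 against LMP1, none of the 18 interferon-stimulated genes was called (median 4.05, against 0.0062 over all genes, 16 positive). Of the remaining lists, the lipid-presenting Cd1d1 (-3.44 ± 0.92, edgeR adjusted p = 0.0484) and the interferon receptor chain Ifnar2 (-1.39 ± 0.23, edgeR adjusted p = 0.01) were lower in Lung-LMP1, and Psma1 was higher (0.60 ± 0.13, edgeR adjusted p = 0.0271). Over all genes tested, 3.95% were called lower and 6.17% higher.

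Against the normal comparator, Ctr tumour organoids had more Erap1 and less Tap2. Erap1 was at 85.3, 107 and 81.5 CPM in Ctr, against 31.9, 20.7 and 19.4 CPM in the comparator, 3.62-fold higher in Ctr (log2 fold change 1.85 ± 0.28, edgeR adjusted p = 0.0104). Tap2 was at 15.6, 12.7 and 6.19 CPM in Ctr, against 23.8, 54.6 and 40.0 CPM in the comparator, 3.64-fold lower (-1.87 ± 0.45, edgeR adjusted p = 0.0277). Neither gene overlapped between the groups. The Tap2 call was lost without any 1 Ctr library or without comparator replicate 2 or 3 (edgeR adjusted p = 0.0518 to 0.0784). Psmb10 was at 15.3, 19.2 and 19.1 CPM in Ctr, against 10.5, 5.11 and 4.15 CPM in the comparator, without overlap (1.37 ± 0.44, edgeR adjusted p = 0.060), and passed without comparator replicate 1 (0.0181).

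The remaining 7 members overlapped between Ctr and the comparator, among them B2m at 518, 457 and 162 CPM in Ctr against 226, 232 and 107 CPM in the comparator, and H2-K1 at 591, 543 and 319 CPM against 642, 594 and 340 CPM. Members called were 2 of 10, 1 in each direction, against 22.4% of 13034 genes (9.67% higher and 12.7% lower). An unadjusted p under 0.05 was found for 3 members, against 39.5% of all genes. Non-overlap was found for 3 members, against 46.2% of all genes, and the median log2 fold change was 0.042, against -0.0545. DESeq2 called Psmb10 as well, 3 members against 33.1% of all genes, and the authors' deposited table calls 2 members higher and 1 lower, against 28.8% of its genes. Of the partners, Ddx58 (2.36 ± 0.44, edgeR adjusted p = 0.0154), Usp18 (3.59 ± 0.95, edgeR adjusted p = 0.0378) and Cxcl10 (4.04 ± 0.92, edgeR adjusted p = 0.0252) were called higher in Ctr, 3 of 18 interferon-stimulated genes. Psmb6 was called lower (-2.01 ± 0.41, edgeR adjusted p = 0.0193). Of 21 regulators Ifngr1, Ifnar1, Nfyb and Creb1 were called higher in Ctr and Irf3 lower, and of 7 loading genes Lnpep, another peptide-trimming aminopeptidase, was called higher. The summed inducible to constitutive ratio was 12.8%, 11.5% and 7.76% in Ctr, against 4.85%, 1.03% and 2.71% in the comparator, with an exact two-sided permutation p of 0.1, the smallest that 3 libraries against 3 allow.

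The comparator columns correlated with the Normal_nasopha library of the same number at r = 0.946 to 0.9547 over 13021 genes, and with Normal_lung at 0.6988 to 0.7278. For B2m they gave 226, 232 and 107 CPM, against 207, 211 and 93.6 CPM in Normal_nasopha. Psmb8 was at 10.6, 6.86 and 8.96 CPM in the comparator, against 3.53, 2.30 and 3.49 CPM in Normal_nasopha, and Tap2 at 23.8, 54.6 and 40.0 CPM, against 10.1, 21.9 and 18.9 CPM. The class I heavy chain H2-D1 differed more, at 58.6, 72.8 and 38.1 CPM in the comparator, against 597, 721 and 338 CPM in Normal_nasopha. The tables thus count some members and H2-D1 differently, so levels are compared only within a table.

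Between the normal tissues, Psmb8 was lower in nasopharynx than in lung organoids. It was at 3.53, 2.30 and 3.49 CPM in Normal_nasopha, against 5.91, 15.9 and 8.74 CPM in Normal_lung, 3.60-fold lower (log2 fold change -1.85 ± 0.43, edgeR adjusted p = 0.0175), and was the single member without overlap. The call was lost without Normal_lung replicate 2 or 3 (edgeR adjusted p = 0.066 and 0.0546). Psmb10 was at 9.77, 4.51 and 3.49 CPM in Normal_nasopha, against 7.15, 24.7 and 14.8 CPM in Normal_lung (-1.53 ± 0.55, edgeR adjusted p = 0.076). Without Normal_nasopha replicate 1, Psmb10 (0.0315) and Erap1 (0.026) were called lower by edgeR. Psmb9 was at 5.56, 0.874 and 4.27 CPM in Normal_nasopha, against 5.31, 11.5 and 5.97 CPM in Normal_lung. Normal_lung replicate 2 was the highest library of its group for all 10 members.

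One of 10 members was thus called, lower in Normal_nasopha, against 31.1% of 15886 genes (15.6% lower and 15.4% higher). An unadjusted p under 0.05 was found for 2 members, against 43.1% of all genes, and non-overlap for 1 member, against 53.1%. DESeq2 also called Psmb10, 2 members against 38.5% of all genes, and the authors' deposited table calls 2 members lower, against 31% of its genes. The transporter and surface genes overlapped between the tissues. Tap1 was at 31.8, 33.6 and 33.6 CPM in Normal_nasopha, against 20.4, 35.5 and 21.8 CPM in Normal_lung, and H2-K1 at 596, 549 and 310 CPM, against 580, 751 and 634 CPM. The inducible to constitutive ratio was 4.88%, 0.906% and 2.51% in Normal_nasopha, against 8.17%, 17% and 11.5% in Normal_lung (exact two-sided permutation p = 0.1, the smallest possible). Partners called lower in Normal_nasopha were the proteasome activator Psme1 (-1.74 ± 0.19, edgeR adjusted p = 0.00113) and Irf1, an interferon regulatory factor (-1.21 ± 0.23, edgeR adjusted p = 0.00803). Of 22 regulators 6 were lower, among them Irf2, Ifngr1, Ifngr2 and Ciita, and 1, Nfyb, was higher. H2-D1 and the interferon-stimulated Ifit2, Ifit3, Usp18 and Ddx58 were also lower in Normal_nasopha, and Canx, Psma1, Psma3 and Psmd1 higher. Summed leukocyte markers were 124 to 298 CPM in Normal_nasopha and 1710 to 3027 CPM in Normal_lung. Most of the Normal_lung sum was Lyz2, at 1663.4 to 2877.7 CPM there and 8.879 to 42.33 CPM in Normal_nasopha. Cd68 went the other way, at 12.96 to 264 CPM in Normal_nasopha and 2.533 to 10.26 CPM in Normal_lung. The sum is thus no measure of a leukocyte share. Of 16 markers, 9 had a mean of at least 1 CPM in Normal_lung and 6 in Normal_nasopha. Ptprc was at 0.894, 4.99 and 3.55 CPM in Normal_lung. Summed lung epithelial markers were 61.5 to 215 CPM in Normal_nasopha and 52126.5 to 60899.3 CPM in Normal_lung. The part of leukocytes or of lung epithelium in the result was not tested.

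**Figure D5:**
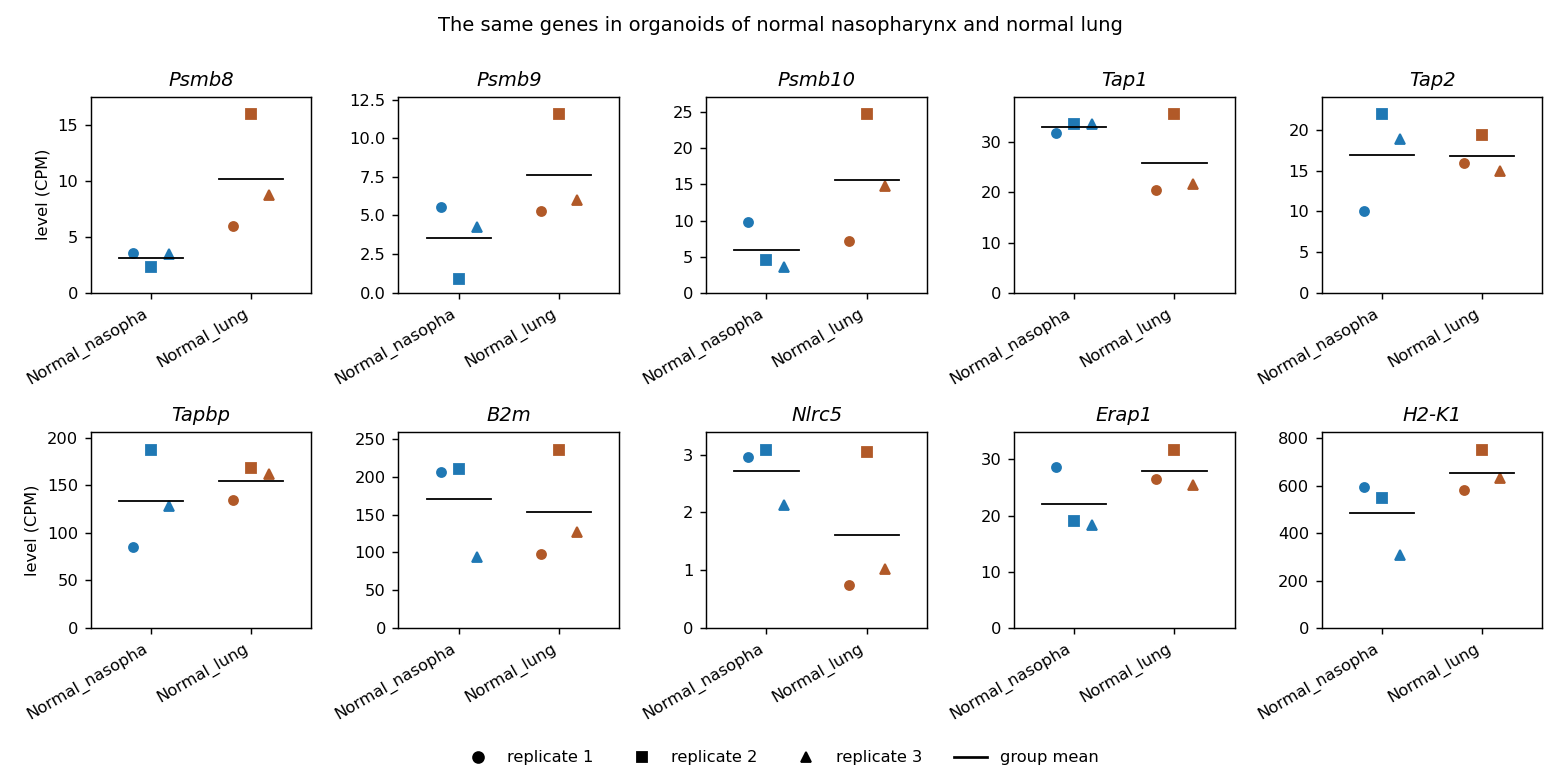
Level of each gene (CPM, linear axis from 0) by library in organoids of normal nasopharynx (left) and normal lung (right), with marker shape per replicate and a line at the group mean. Psmb8 is the one gene whose groups do not overlap, at 2.30 to 3.53 CPM in Normal_nasopha and 5.91 to 15.9 CPM in Normal_lung.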

How the data were processed

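Polyadenylated RNA was sequenced from 16 organoid libraries. The submitters' processing notes name STAR, DESeq2, DESeq and the mm10 build. For the counter, its handling of strand and the annotation, the sources used here state nothing. What the authors deposited is 6 tables of unnormalised counts for each gene, on which all tests here run. Log2 fold changes and p-values with adjustment stand beside them, per the file headers, and are quoted as the authors' deposited table. The 13 columns repeated between tables were identical, and 0 rows lacked a gene name.

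The test was the quasi-likelihood F-test of edgeR 4.0.16 (R 4.3.3), after filterByExpr and TMM scaling, with robust estimation. Each SE of a fitted log2 fold change was derived as its absolute value divided by the square root of F. Benjamini-Hochberg adjustment ran over all genes tested, with calls at an adjusted p under 0.05, and all 10 members passed the filter in every comparison. A single fit held all 10 tumour libraries (4 groups, 6 residual degrees of freedom), while Ctr with the comparator, and the normal tissues, each had a fit of their own. Named are all members, called genes of the 7 pathway lists that are reported, genes the ratios need and the 5 genes most like the members, while H2-D1 in LMP1 against Ctr was chosen after its values were seen. Some listed genes are not reported here. CPM are counts per 1000000 counts of the library. Levels per kb use exonic length from GENCODE vM21 on GRCm38. Floors of 3 counts cover counting error only. Alternatives were DESeq2 1.42.0 (shares of the genes that pass the same filter), RLE size factors, no filter, each library left out, the replicate block, only the groups compared, and, for the comparator, a fit of 13 columns chosen after seeing the data. The procedure was tested on simulated data. The members and lists were chosen with earlier results of these data known.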

Additional observations from a re-analysis of the deposited data

How the results depend on the processing

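Of 949 member log2 fold changes under alternative settings, 869 kept their direction and side of the threshold, 47 reversed, 22 passed newly and 11 were lost. The share kept is no measure of robustness. In Lung-Ctr against Ctr and Lung-LMP1 against Lung-Ctr most settings called no gene at all, so no member could change side in those settings. Some settings left out libraries of groups not compared. Members called in LMP1 against Ctr were 6 with DESeq2, 2 with the replicate block, 3 with only the groups compared and 0 to 3 with 1 library left out; all genes called were 2210 as reported, 3564 with DESeq2, 483 with the block, and 25 and 126 without LMP1 replicate 1 or 2. In Lung-LMP1 against Lung-Ctr DESeq2 called 1 member (869 genes), and in Lung-LMP1 against LMP1 it called 3 and the groups alone 1. In Lung-LMP1 against LMP1 the all-gene count was 1361 as reported, 2537 with DESeq2, 2682 with the groups alone, 360 with the block, and 33 and 154 without LMP1 replicate 1 or 2. The interaction called 120 genes as reported, 922 with DESeq2 and 2 with the block. Ctr against the comparator called 1 member with the block (1001 genes, against 2917) and 1 to 3 with 1 library left out, and 3 in the fit of 13 columns chosen after seeing the data. Normal_nasopha against Normal_lung called 2 with DESeq2 (6113 genes, against 4935), 0 with the block (3622 genes) and 0 to 3 with 1 library left out (2657 to 5421 genes). The block lost Tap2 against the comparator (edgeR adjusted p = 0.0672) and Psmb8 between normal tissues (0.0629), and added Tap1 in LMP1 against Ctr (0.0466). Deviations of same-numbered libraries from their group means correlated at -0.348 to 0.174 in tumours. They did so at -0.163 to -0.0179 for Ctr and the comparator and -0.196 to -0.105 for normal tissues. Deviations within groups of 2 or 3 libraries are tied to each other, so this check cannot exclude that replicate numbers pair the libraries. With each pair of subunits weighted equally, the log2 difference in the immunoproteasome ratio was -2.03 for LMP1 against Ctr, -1.74 for Lung-LMP1 against Lung-Ctr and 0.78 for Lung-LMP1 against LMP1, where the summed ratio gave -0.51. Reversals under the block were Tap2 in Lung-LMP1 against LMP1 (0.21), Psmb10 (-0.040) and B2m (-0.027) in Lung-Ctr against Ctr, and Psmb8 in the interaction (0.76). B2m between normal tissues was -0.032 with DESeq2, -0.032 with RLE size factors and -0.025 without a filter. With 1 library left out, values that reversed ranged as follows. In Lung-LMP1 against Lung-Ctr, Tapbp ran from -0.81 to 0.39, B2m from -1.62 to 0.57 and H2-K1 from -1.15 to 0.66. In Lung-LMP1 against LMP1, Psmb8 ran from -0.36 to 1.28, Tap2 from -0.80 to 0.28 and Tapbp from -0.51 to 0.29. In Lung-Ctr against Ctr, Psmb10 ran from -0.071 to 0.19, Tapbp from -0.047 to 1.09, B2m from -0.94 to 0.98, Nlrc5 from -0.36 to 1.6 and H2-K1 from -0.67 to 1.15. In the interaction, Psmb8 ran from -1.26 to 0.70, Tap1 from -0.054 to 1.33, Tapbp from -1.13 to 0.054, Nlrc5 from -0.63 to 6.40, Erap1 from -0.049 to 0.19 and H2-K1 from -0.13 to 1.68. In Ctr against the comparator, Psmb8 ran from -0.43 to 0.41, Tap1 from -0.63 to 0.13, Nlrc5 from -0.12 to 0.40 and H2-K1 from -0.45 to 0.017, and between normal tissues Tap2 ran from -0.37 to 0.11 and B2m from -0.21 to 0.42. The causes were not tested. Where leaving out a library left a group with 1, that library is assumed to vary like the others. Low counts limit Nlrc5 and Psmb9 in LMP1.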

Other observations

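MHC class II genes, which present outside peptides and are mostly made by antigen-presenting cells, were low in tumours, where Cd74 reached at most 3.10 CPM. Cd74, the invariant chain, was at 0.0970 to 1.45 CPM in Normal_nasopha, against 68.5 to 102 CPM in Normal_lung (log2 fold change -7.17 ± 0.78, edgeR adjusted p = 0.00111). H2-DMb1, which helps load class II, was at 1.61 to 5.53 CPM in Normal_nasopha, against 20.9 to 25.2 CPM in Normal_lung (-3.09 ± 0.53, edgeR adjusted p = 0.00563). Of 5 class II genes tested, Cd74 and H2-DMb1 were called lower and 3 were not called. Of all genes tested, 15.6% were called lower and 15.4% higher. In Normal_nasopha against Normal_lung, H2-Ab1 was at 1.01 to 4.80 against 2.53 to 6.16 CPM. H2-DMa was at 3.14 to 7.23 against 4.76 to 5.96 CPM, and H2-Eb1 at 0.967 to 4.85 against 0.844 to 1.55 CPM. The class II transactivator Ciita was at 0.368 to 0.677 CPM in Normal_nasopha, against 2.19 to 3.56 CPM in Normal_lung (-2.57 ± 0.44, edgeR adjusted p = 0.00535). Beside these, Ptprc was at 0.894 to 4.99 CPM in Normal_lung. Summed lung epithelial markers were 61.5 to 215 CPM in Normal_nasopha and 52126.5 to 60899.3 CPM in Normal_lung. The part of leukocytes or of lung epithelium in these values was not tested. In tumours H2-Aa reached at most 3 reads in any library, and Ciita at most 5, in both LMP1 libraries. Against the comparator H2-Eb1 was called lower in Ctr (0, 0 and 1 reads, against 15, 28 and 79 reads in the comparator, edgeR adjusted p = 0.017), as was H2-DMb1 (8, 1 and 2 reads, against 24, 34 and 101 reads in the comparator, edgeR adjusted p = 0.0397). The remaining 3 of 5 class II genes tested there were not called, against 12.7% of all genes called lower and 9.67% higher.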
